A study of Mus musculus with 6 samples.

Results

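The genes described here encode the 5 ligands of the vascular endothelial growth factor (VEGF) family, the angiopoietins 1 and 2, and the 2 neuropilins: Vegfa, Vegfb, Vegfc, Vegfd, Pgf, Angpt1, Angpt2, Nrp1 and Nrp2. They were chosen by name, as 9 of the 19938 genes that had a row of their own on the array, and each was measured by exactly 1 row. They were followed in tumors of Renca, a renal adenocarcinoma line derived from the BALB/c strain. Cells were injected into BALB/c mice either into the outer cortex of the kidney (3 intrakidney tumors) or under the skin (3 subcutaneous tumors), and the tumors were frozen 12 days later. Each tumor came from its own mouse, and both groups carried the same cells in the same strain. The labels name no altered gene and no drug. Total RNA was measured on arrays with probes along the whole transcript, and values are log2 expression after robust multi-array averaging (RMA). The labels give no age or sex of the mice.

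VEGF-A acts on endothelial cells through the receptor KDR (VEGFR2), while VEGF-B and placental growth factor (Pgf) bind FLT1 (VEGFR1). VEGF-C and VEGF-D bind FLT4 (VEGFR3) of lymphatic endothelium, and VEGF-C, once cleaved, also binds KDR. Angiopoietin 1 activates the receptor TEK (TIE2) and stabilises vessels, whereas angiopoietin 2, released by activated endothelium, is mainly a context-dependent antagonist of it. Neuropilins are co-receptors for VEGFs and for class 3 semaphorins. In renal carcinoma, loss of the von Hippel-Lindau protein stabilises hypoxia-inducible factors, and VEGFA is one of their best-known targets.

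RefSeq promoter sequences were held for 7 of the 9 genes. Shown are the 250 bases before the annotated start (GRCm38.p6) of Vegfa, whose difference between the sites was the nearest to 0, of Vegfd, whose difference was the largest of the 9, and of Vegfc, its closest relative in the family. Vegfa lies at chr17:46032378-46032627 on the minus strand, Vegfc at chr8:54077282-54077531 on the plus strand, and Vegfd at chrX:164373272-164373521 on the plus strand. They are written 5′ to 3′ along the gene, and capitals mark GC boxes (GGGCGG on either strand).
Vegfa: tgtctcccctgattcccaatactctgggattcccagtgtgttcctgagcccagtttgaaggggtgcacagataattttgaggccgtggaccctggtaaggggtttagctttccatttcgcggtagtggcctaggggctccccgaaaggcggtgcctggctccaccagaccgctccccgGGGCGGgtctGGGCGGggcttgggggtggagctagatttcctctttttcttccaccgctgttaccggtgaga
Vegfc: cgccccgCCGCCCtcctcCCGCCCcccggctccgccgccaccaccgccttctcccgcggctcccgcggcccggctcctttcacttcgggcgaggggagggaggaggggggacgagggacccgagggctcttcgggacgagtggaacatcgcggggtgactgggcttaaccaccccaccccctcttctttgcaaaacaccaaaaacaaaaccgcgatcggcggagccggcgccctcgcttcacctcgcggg
Vegfd: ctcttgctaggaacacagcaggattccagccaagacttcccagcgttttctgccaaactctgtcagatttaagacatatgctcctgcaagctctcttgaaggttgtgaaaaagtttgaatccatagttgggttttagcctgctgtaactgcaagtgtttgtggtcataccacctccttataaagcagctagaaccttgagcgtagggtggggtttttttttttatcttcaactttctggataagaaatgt

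The sequences differ in base composition. The share of G and C was 71.6% for Vegfc, 59.2% for Vegfa and 42.4% for Vegfd, against a median of 52.4% over 32851 promoters of that length. The windows of Vegfa and Vegfc each held 2 GC boxes and that of Vegfd held 0; 32.7% of all promoters held at least 1. The core of the hypoxia response element (ACGTG or GCGTG, either strand) was in none of the 3 windows shown. It was in 5 of the 9 windows of the 7 genes, namely an internal start of Vegfa, 1 of 2 starts of Pgf, and the starts of Vegfb, Nrp1 and Nrp2, and 38.6% of all promoters held it. The AP-1 site TGACTCA (either strand) was in 0 of these 9 windows and in 4.5% of all promoters. Matches of the 3 motifs may overlap one another, and a missing match says only that these letters are not in the window.

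None of the 9 genes passed the threshold between intrakidney and subcutaneous tumors, an adjusted p of 0.05 over all genes with limma. The same rule called 0.231% of all genes tested. At an unadjusted p of 0.05, 2 of the 9 genes passed, Vegfd and Angpt2, as did 8.43% of all genes. Vegfd was lower and Angpt2 higher in intrakidney tumors, and these were also the 2 genes whose arrays did not overlap between groups. Over all genes, intrakidney arrays lay entirely above the subcutaneous arrays for 8.41% and entirely below for 6.53%. Of the 9 differences 3 were positive, those of Angpt2, Nrp1 and Nrp2. The median difference of the 9 genes was -0.004, against -0.006 for all genes tested.

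**Figure D1:**
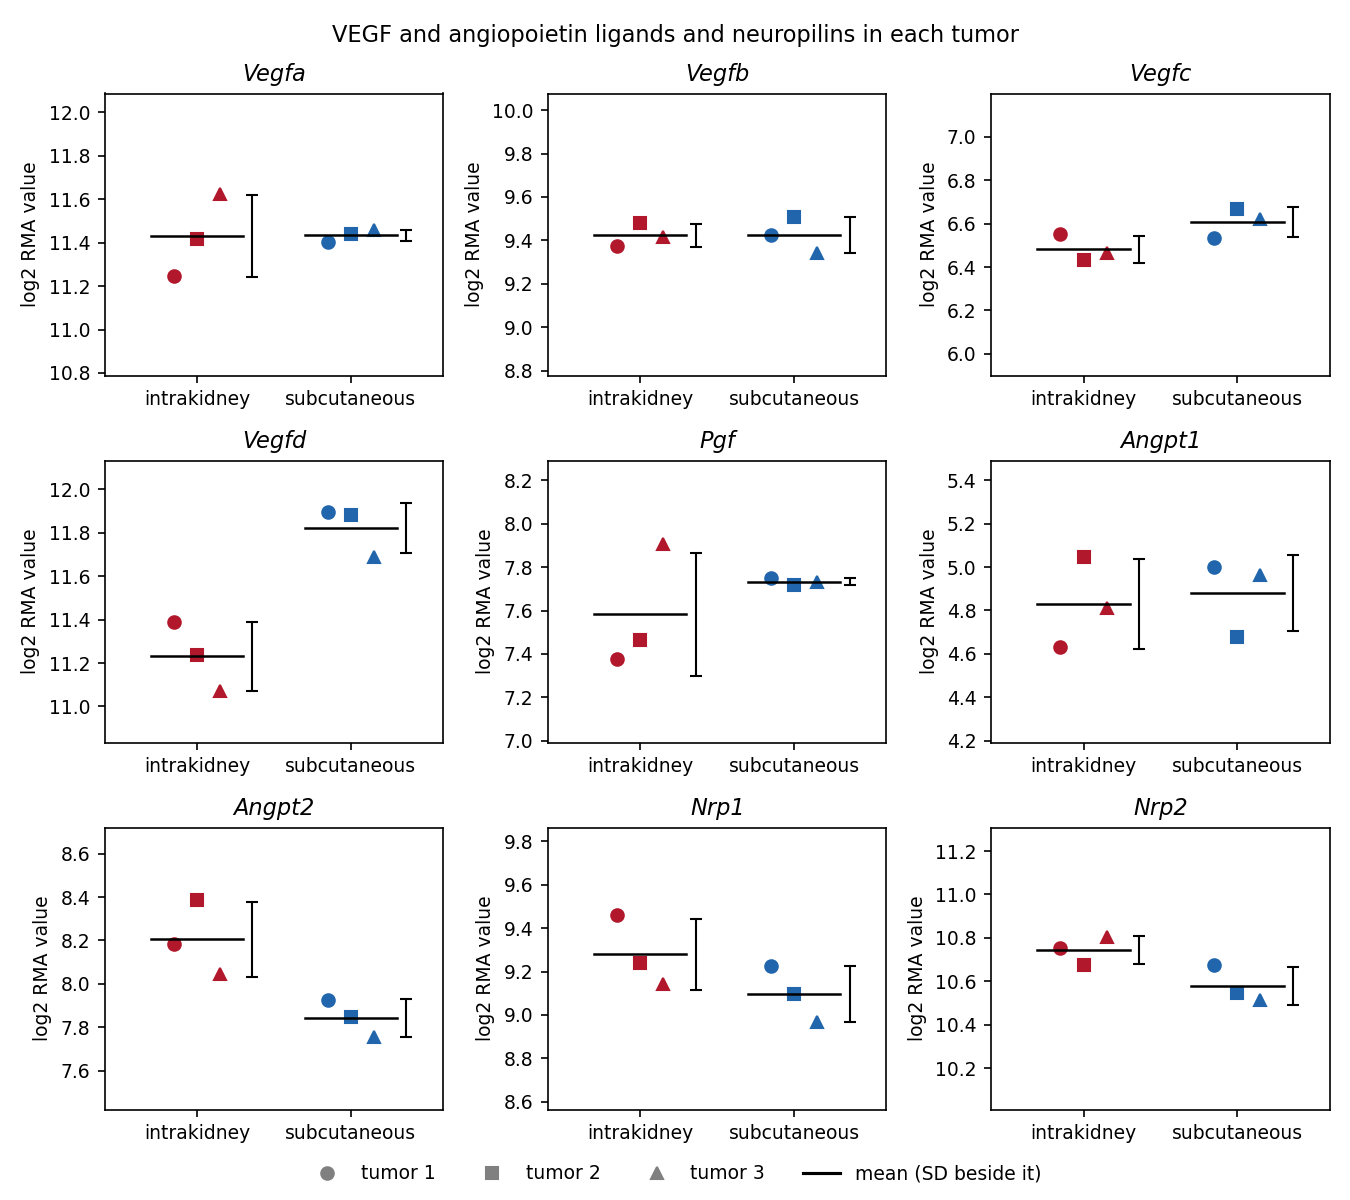
Log2 RMA values (y axis, the same span in every panel) of the 9 genes in each of the 3 intrakidney (red) and 3 subcutaneous (blue) tumors, with the group mean as a line and the SD beside it. The groups are apart for Vegfd and Angpt2 and overlap for the other 7 genes, and the subcutaneous points of Vegfa and Pgf lie close together while their intrakidney points spread.

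Vegfd encodes a ligand of FLT4 that promotes growth of lymphatic vessels. Its log2 values were 11.39, 11.24 and 11.07 in intrakidney tumors 1, 2 and 3 and 11.90, 11.88 and 11.69 in subcutaneous tumors 1, 2 and 3. Every intrakidney tumor lay below every subcutaneous tumor, and intrakidney tumor 3 was the lowest. The means were 11.23 ± 0.16 and 11.82 ± 0.12 (SD, n = 3 per group), a difference of -0.59 ± 0.10 (SE) on the log2 scale with a 95% interval from -0.83 to -0.35. The mean was 1.51-fold higher in subcutaneous tumors. Its unadjusted p of 5.640e-04 in limma ranked 103rd among all genes, and the adjusted p of 0.109 missed the threshold. An absolute difference of this size or more was found in 0.983% of all genes. Vegfd passed when dim genes were left out (adjusted p = 0.0452) and with an intensity trend and robust prior (adjusted p = 0.0141). It also passed with array weights (adjusted p = 0.0063). Over the whole array these settings called 101, 138 and 624 genes, against 46 as reported. Vegfd missed the threshold in every other setting. Among these were every row tested (adjusted p = 0.347), a replicate block (adjusted p = 0.123) and each fit without 1 array (adjusted p = 0.0955 to 0.537). The adjusted p ranged from 0.0063 to 0.537 over all settings tried.

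Vegfc, the ligand most closely related to Vegfd and the main growth factor of lymphatic endothelium, ranged from 6.43 to 6.55 in intrakidney and from 6.54 to 6.67 in subcutaneous tumors. The groups overlapped at intrakidney tumor 1 and subcutaneous tumor 1. The difference was -0.13 ± 0.07 (SE) with a 95% interval from -0.30 to 0.05 (limma, adjusted p = 0.728). Because the level of 1 gene cannot be set against that of another on an array, the log2 value of Vegfc was subtracted from that of Vegfd within each tumor and only the change of this difference between the groups was read. It was 4.84, 4.81 and 4.61 in the intrakidney tumors and 5.36, 5.22 and 5.07 in the subcutaneous tumors, without overlap (-0.46 between the means; exact permutation test, two-sided, p = 0.1, which is the lower limit for 3 against 3). This comparison was 1 of 4 between pairs of these genes, chosen after their values had been seen, and its p adjusted over the 4 was 0.133. The gap between the groups in Vegfd was wider than the full span of Vegfc over the 6 arrays. No pattern of Vegfc within that span could have made the groups overlap, so the comparison largely restates the Vegfd difference. The mean of Vegfc was under the 40th percentile of all genes (6.82), where RMA compresses changes. Its own change may therefore be understated in this comparison.

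Of the genes for proteins that process VEGF-C and VEGF-D, 0 of 6 passed, with 3 differences positive and 3 negative and a median of -0.01. Adamts3, the protease that cleaves VEGF-C, differed by -0.27 ± 0.10 (SE, adjusted p = 0.494). Ccbe1, its secreted cofactor, differed by 0.23 ± 0.14 (SE, adjusted p = 0.747), and the convertase gene Pcsk5 by -0.05 (adjusted p = 0.954). Of 5 measured markers of lymphatic endothelium 0 passed and 4 were positive, with a median of 0.05. Among them, Prox1, Mmrn1 and Reln had means under the 40th percentile of all genes (6.82), where RMA compresses changes. The hyaluronan receptor gene Lyve1, which some macrophages also express, differed by 0.54 (adjusted p = 0.450), the mucin-type glycoprotein gene Pdpn, which fibroblasts and tumor cells can express as well, by 0.25 (adjusted p = 0.404), and Reln by -0.14 (adjusted p = 0.730).

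Fibroblast markers are given beside Vegfd. Of 12 fibroblast markers 9 were negative and 2 fell past the threshold in intrakidney tumors, Lrrc15 by 1.34 and Postn by 1.66 on the log2 scale, with a median of -0.41 over the list. The other 3 were positive, Dcn by 0.46, Dpt by 0.25 and Fap by 0.06 (adjusted p = 0.781, 0.916 and 0.934). Lrrc15 still passed whichever array was left out. Postn passed without intrakidney tumor 3 (adjusted p = 0.0062) but not when any other array was left out (adjusted p = 0.0647 to 0.253). Averaged over the 12 genes, intrakidney tumors 1, 2 and 3 measured 8.62, 8.44 and 9.10, and the subcutaneous tumors lay between 9.16 and 9.32. Within the intrakidney group, tumor 3 had the highest fibroblast mean and the lowest Vegfd value. The part of fibroblast content in the Vegfd difference was not tested. In bulk RNA of a tumor, fewer cells of a type and less RNA per cell cannot be told apart.

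Vegfa, the main growth factor of blood vessel endothelium, measured 11.25, 11.42 and 11.63 in intrakidney tumors 1, 2 and 3 and 11.40, 11.44 and 11.46 in the subcutaneous tumors. The intrakidney tumors lay on both sides of the subcutaneous ones, and the means coincided at 11.43 in each group. The 95% interval of the difference ran from -0.24 to 0.23, that is from 0.846-fold to 1.18-fold. The SD was 0.19 in intrakidney and 0.03 in subcutaneous tumors. The 1 row of the array does not separate the splice forms of Vegfa, which differ in their binding to matrix and neuropilin.

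Pgf, which encodes the placental growth factor, had the same pattern of spread, with 7.38, 7.47 and 7.91 in intrakidney tumors 1, 2 and 3 and 7.75, 7.72 and 7.73 in the subcutaneous tumors. Intrakidney tumor 3 was above and the others below all subcutaneous tumors. The difference was -0.15 ± 0.13 (SE), with a 95% interval from -0.46 to 0.16 (adjusted p = 0.852). Leaving out intrakidney tumor 3 gave -0.31 (adjusted p = 0.439), and leaving out tumor 1 of that group gave -0.05 (adjusted p = 0.921). For 2 of the 9 genes, Vegfa and Pgf, the SD in intrakidney tumors was at least 5 times that in subcutaneous tumors, as it was for 5.57% of all genes. The cut of 5 was not part of the planned comparisons. The subcutaneous SD of these genes was small, at 0.03 and 0.02, while over all genes the median SD was 0.12 in intrakidney and 0.10 in subcutaneous tumors. The SD was larger in intrakidney tumors for 6 of the 9 genes and for 59.4% of all genes. Intrakidney tumor 3, highest in both genes, also had the highest mean over 15 proximal tubule markers (7.56, against 6.49 for tumor 1, 6.94 for tumor 2 and 6.40 to 6.55 under the skin). The part of kidney tissue in the spread of Vegfa and Pgf was not tested.

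Vegfb, a FLT1 ligand tied to heart and muscle vessels, ranged from 9.37 to 9.48 in intrakidney and from 9.34 to 9.51 in subcutaneous tumors. The difference was -0.004 ± 0.08 (SE), with a 95% interval from -0.18 to 0.17. The value of Vegfd minus that of Vegfa within each tumor was 0.14, -0.18 and -0.56 in the intrakidney and 0.49, 0.44 and 0.23 in the subcutaneous tumors, again without overlap (two-sided exact permutation p = 0.1, 0.133 adjusted over the 4 pairs). That pair too was chosen after the values had been seen. The Vegfa means coincided, so the comparison largely restates the Vegfd difference.

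Of 9 regulators of hypoxia-inducible factors 0 passed, with a median of -0.04. Egln1, a prolyl hydroxylase that marks these factors for decay, differed by -0.35 ± 0.13 (SE, adjusted p = 0.480), Epas1, which encodes HIF-2 alpha, by 0.23 ± 0.08 (SE, adjusted p = 0.514), and Arnt, the shared partner subunit, by -0.16 (adjusted p = 0.657). Of 14 genes induced by hypoxia 13 were negative and 0 passed, with a median of -0.16. At an unadjusted p of 0.05 there were 6, among them the carbonic anhydrase gene Car9, the 1 positive gene of the list, at 0.20 (adjusted p = 0.498). Over all genes tested, 8.43% reached that unadjusted p in limma, and 10374 of 19938 differences were negative. The lipoprotein receptor gene Vldlr, Ndrg1 and the endoplasmic reticulum oxidase gene Ero1a differed by -0.38, -0.23 and -0.30 (adjusted p = 0.325, 0.420 and 0.446). Averaged over the 14 genes, intrakidney tumors 1, 2 and 3 measured 10.88, 10.86 and 11.20 and the subcutaneous tumors 11.06 to 11.24, so the groups overlapped. The part of hypoxia in the spread of Vegfa and Pgf was not tested.

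**Figure D2:**
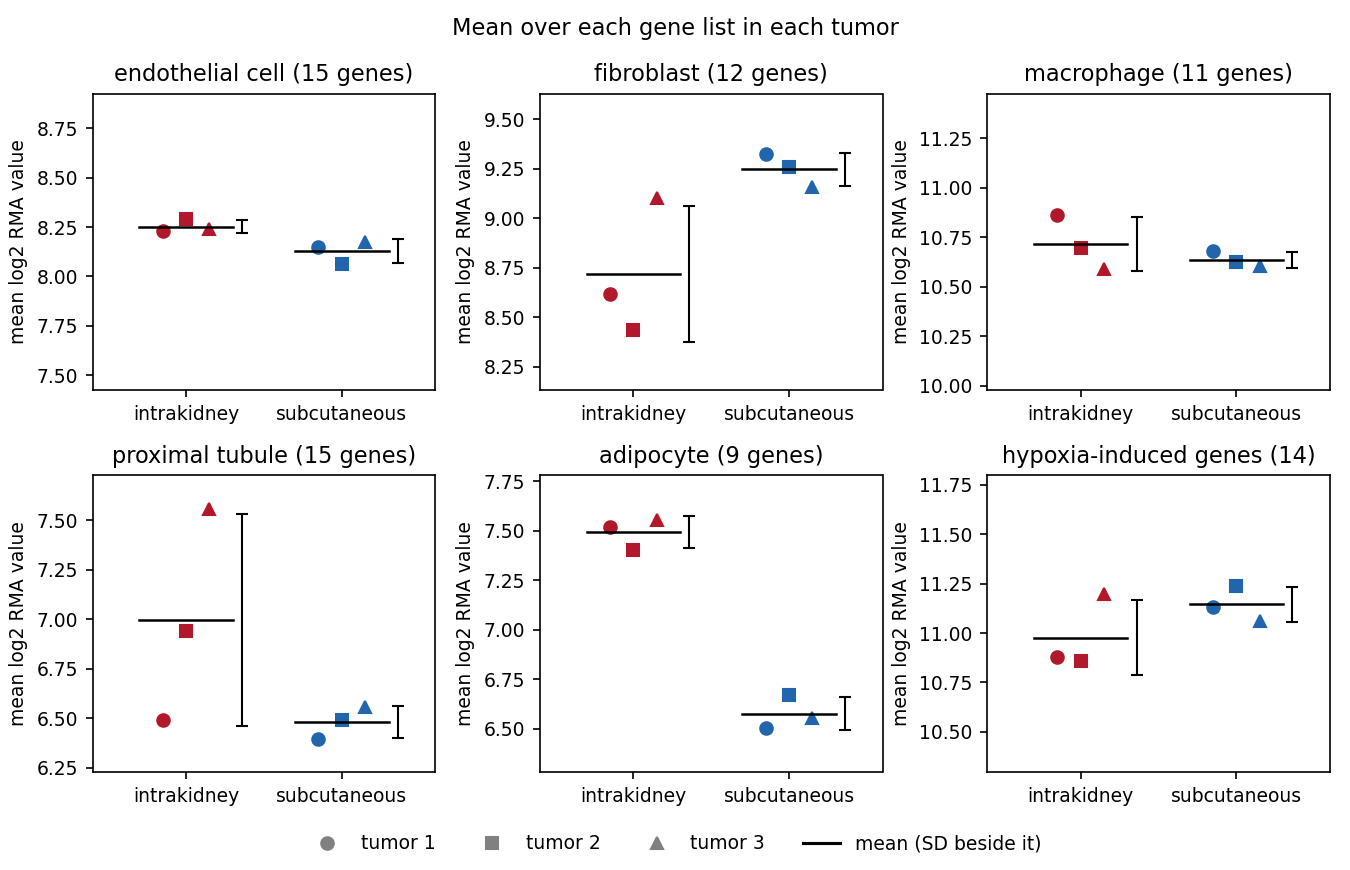
Mean log2 RMA value (y axis, the same span in every panel) over 6 gene lists in each of the 3 intrakidney (red) and 3 subcutaneous (blue) tumors, with the group mean as a line and the SD beside it. Endothelial and adipocyte means are higher and fibroblast means lower in every intrakidney tumor, while the proximal tubule mean is spread over the intrakidney tumors, from 6.49 to 7.56.

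Angpt2 encodes the angiopoietin stored in endothelial cells and released at sites of vessel remodelling. Its log2 values were 8.18, 8.39 and 8.05 in intrakidney tumors 1, 2 and 3 and 7.93, 7.85 and 7.75 in the subcutaneous tumors. Every intrakidney tumor lay above every subcutaneous tumor, with the narrowest gap between intrakidney tumor 3 and subcutaneous tumor 1. The means were 8.21 ± 0.17 and 7.84 ± 0.09 (SD, n = 3 per group), a difference of 0.36 ± 0.10 (SE) or 1.29-fold, with a 95% interval from 0.12 to 0.60 that is not adjusted for the number of genes. The unadjusted p was 0.0084 in limma, and the adjusted p of 0.363 missed the threshold, as it did in every other setting tried (0.109 to 0.966). The difference stayed positive in all of them, between 0.27 and 0.44. Leaving out 1 array could not change this sign, since the groups did not overlap. Settings that alter only the test could not change it either.

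Angpt1, the activating ligand of TEK made mainly by mural and stromal cells, averaged 4.83 ± 0.21 at the kidney site and 4.88 ± 0.18 under the skin (SD, n = 3 per group), with overlapping arrays. The difference was -0.05 ± 0.13 (SE), with a 95% interval from -0.36 to 0.25 (adjusted p = 0.962). Angpt1 and Vegfc were the 2 of the 9 genes whose mean fell under the 40th percentile of all genes (6.82), where RMA compresses changes. The value of Angpt2 minus that of Angpt1 was 3.55, 3.34 and 3.24 in the intrakidney and 2.93, 3.17 and 2.79 in the subcutaneous tumors. These did not overlap, and their means of 3.38 ± 0.16 and 2.96 ± 0.19 (SD, n = 3 per group) were 0.41 apart (two-sided exact permutation p = 0.1, 0.133 adjusted over the 4 pairs). This pair was also chosen after the values had been seen. Angpt1 itself changed little, so the comparison largely restates the Angpt2 difference. Of 5 measured related ligands 0 passed, with 1 difference positive and a median of -0.09: Angpt4 differed by -0.15, Angptl4, a regulator of lipoprotein lipase, by 0.17, and Angptl7 by -0.09 (adjusted p = 0.786, 0.798 and 0.827).

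The receptor genes were all on the positive side. Of 6 genes 0 passed, and 3 had an unadjusted p under 0.05, as did 8.43% of all genes. In 5 the intrakidney arrays lay entirely above the subcutaneous arrays, the state that 8.41% of all genes showed. Tek, the angiopoietin receptor, measured 7.11, 7.06 and 7.34 in intrakidney and 6.81, 6.67 and 6.85 in subcutaneous tumors, a difference of 0.40 ± 0.10 (SE, adjusted p = 0.260). Flt1, the receptor for VEGF-A, VEGF-B and placental growth factor, measured 8.39, 8.57 and 8.35 against 8.07, 7.79 and 8.16, a difference of 0.43 ± 0.11 (SE, adjusted p = 0.318). Kdr measured 8.83, 8.53 and 8.40 against 8.33, 8.02 and 8.28, a difference of 0.37 ± 0.13 (SE, adjusted p = 0.476). Ptprb, a phosphatase that restrains TEK, differed by 0.10 and Tie1, the partner of TEK, by 0.09 (adjusted p = 0.792 and 0.832). Flt4, the receptor of VEGF-C and VEGF-D, differed by 0.01 with a 95% interval from -0.27 to 0.28 and was the 1 receptor gene whose groups overlapped. Its group means of 6.66 and 6.65 were under the 40th percentile of all genes (6.82), where RMA compresses changes. A change in Flt4 may therefore be understated.

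**Figure D3:**
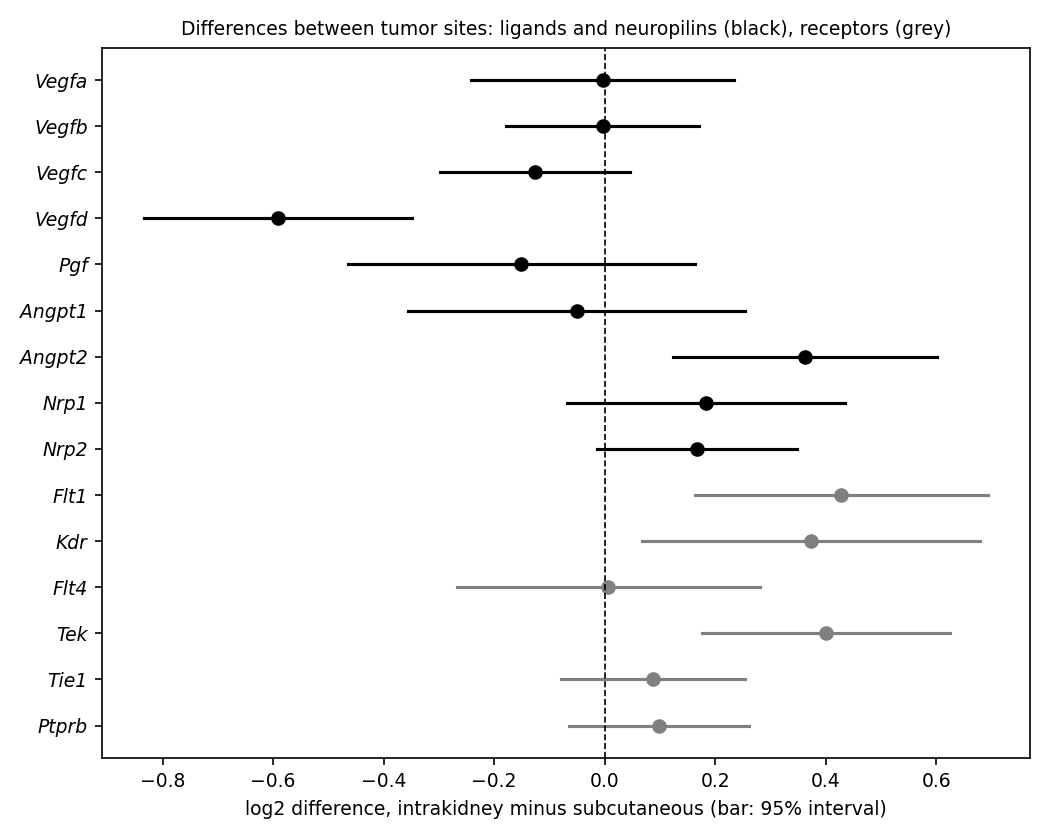
Log2 difference, intrakidney minus subcutaneous (x axis), of the 9 ligand and neuropilin genes (black) and 6 receptor genes (grey), with bars for the 95% interval of the limma fit, not adjusted for the number of genes. The bars of Vegfd, Angpt2, Flt1, Kdr and Tek do not cross 0, and those of the other 10 genes do.

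Endothelial markers are given beside Angpt2 and the receptors. Of 15 endothelial markers 9 were positive and 1 rose past the threshold, the capillary and vein sialomucin gene Emcn, with a log2 difference of 0.72 ± 0.10 (SE; limma, adjusted p = 0.0460) and a median of 0.13. Cdh5, the cadherin of endothelial junctions, differed by 0.24 and Egfl7 by 0.28 (adjusted p = 0.398 and 0.426). The general endothelial gene Pecam1 differed by 0.009, and 6 markers were negative, from -0.11 (Vwf) to -0.0006 (Sox17). The mean over the 15 genes was 8.23 to 8.29 in intrakidney and 8.06 to 8.18 in subcutaneous tumors. The part of endothelial content in the Angpt2 and receptor differences was not tested. Among 8 genes of tip cells and of the endothelial response to VEGF, 1 passed: Esm1, a proteoglycan gene of sprouting endothelium, rose by 0.89 ± 0.11 (SE, adjusted p = 0.0313), from 8.19, 7.95 and 7.77 in the subcutaneous tumors to 8.85, 8.83 and 8.90 in the intrakidney tumors. Leaving out any 1 of the 6 arrays ended both calls, with an adjusted p of 0.0606 to 0.247 for Emcn and 0.0647 to 0.186 for Esm1, and Emcn also missed the threshold after quantile normalization (adjusted p = 0.0668). Adamts1, a protease that binds and sequesters VEGF-A, differed by 0.52 ± 0.07 (SE, adjusted p = 0.0533) and Cxcr4, a chemokine receptor gene also of leukocytes, by -0.72 ± 0.15 (SE, adjusted p = 0.187). Over these 8 genes 5 differences were positive, with a median of 0.11.

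Nrp1 encodes the co-receptor that strengthens VEGF-A signalling through KDR. It measured 9.46, 9.24 and 9.14 in intrakidney tumors 1, 2 and 3 and 9.23, 9.10 and 8.97 in the subcutaneous tumors. The groups overlapped, since subcutaneous tumor 1 lay above intrakidney tumor 3. The difference was 0.18 ± 0.11 (SE), with a 95% interval from -0.07 to 0.43 (adjusted p = 0.730).

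Nrp2, the neuropilin linked to VEGF-C and lymphatic vessels, measured 10.76, 10.68 and 10.80 in the intrakidney tumors and 10.68, 10.54 and 10.51 in the subcutaneous tumors. The groups met at intrakidney tumor 2 and subcutaneous tumor 1, whose values are equal at this rounding. The difference was 0.17 ± 0.08 (SE), with a 95% interval from -0.01 to 0.35 (adjusted p = 0.635). Nrp1 minus Nrp2 within each tumor changed by 0.02 between the groups, with overlapping values (two-sided exact permutation p = 0.8). Both differences kept a positive sign in every setting tried, with 0.09 to 0.36 for Nrp1 and 0.13 to 0.22 for Nrp2. Settings that alter only the test return the same difference.

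The other partners of neuropilins gave few differences. Of 5 plexin genes 0 passed and 3 were positive, with a median of 0.06. Plxna1, a signalling partner of neuropilins for semaphorins, differed by 0.21 ± 0.07 (SE, adjusted p = 0.440), Plxna2 by -0.15 and Plxna3 by -0.11 (adjusted p = 0.757 and 0.824). Of 7 class 3 semaphorin genes 0 passed and 3 were positive, with a median of -0.002. Sema3a, a Nrp1 ligand that competes with VEGF-A in some settings, measured 5.73, 5.64 and 5.52 in intrakidney and 5.91, 5.98 and 6.10 in subcutaneous tumors, a difference of -0.37 ± 0.09 (SE, adjusted p = 0.245). Sema3d and Sema3b differed by 0.18 and -0.08 (adjusted p = 0.680 and 0.868).

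The genes most like Vegfa over the 6 arrays, among 9962 genes at or above the median value, were Spin1, Smtnl2 and Trappc6a, with a Pearson correlation of 0.981, 0.976 and 0.966. For Vegfd they were Slc35e2, Cltc and Spcs1, with 0.999, 0.994 and 0.993. The correlations are a description over 6 arrays that also differ by site. They are the highest of a search over 9962 genes, where values this high can occur without any relation between the genes. Those of Vegfd follow the gap between the sites, which was -0.23 for Slc35e2, -0.11 for Cltc and -0.12 for Spcs1 (limma, adjusted p = 0.410, 0.738 and 0.700), smaller than that of Vegfd.

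The arrays were alike in level, with a median over all rows of 7.08 to 7.11. Markers of renal epithelium, which Renca cells derive from, had a mean of 10.02 to 10.24 on the 6 arrays over 7 genes, and 0 of them passed. Of these markers 3 were positive and 4 negative. Cdh1 differed most, by -0.52 without overlap between the groups, and Epcam by -0.23 (limma, adjusted p = 0.209 and 0.760). Adipocyte markers had 9 of 9 differences positive and 3 past the threshold (mean 7.40 to 7.56 in intrakidney and 6.51 to 6.67 in subcutaneous tumors), and all 8 T cell markers were negative with 0 past it. Of the 3 adipocyte calls in limma, Cidec was lost whichever array was left out (adjusted p = 0.051 to 0.153). Fabp4 was lost only without subcutaneous tumor 2 (adjusted p = 0.0587), and Car3 only without subcutaneous tumor 1 (adjusted p = 0.0623), among fits without 1 array. Podocytes, which make Vegfa in the normal kidney, had 0 of 6 markers past the threshold, with a mean of 7.17 to 7.25 and 7.10 to 7.24. The part of these cells in the values of the ligands was not tested. With 3 arrays a group, precision is limited throughout.

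**Figure D4:**
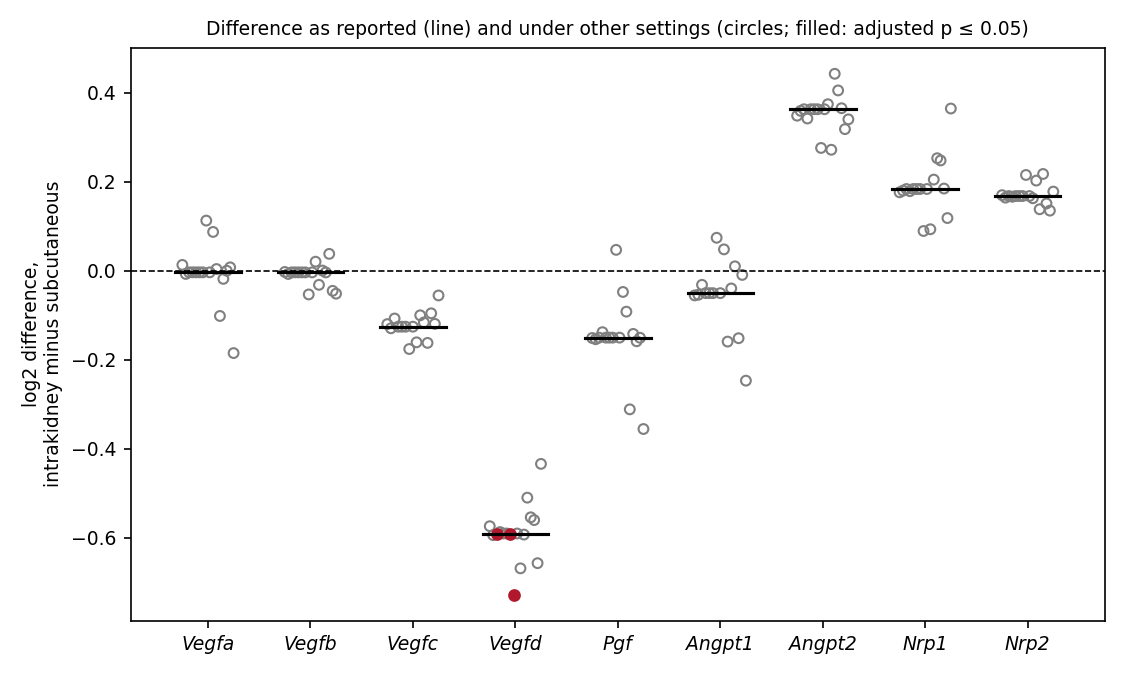
Log2 difference, intrakidney minus subcutaneous (y axis), of each of the 9 genes as reported (line) and under the other settings (circles, filled where the adjusted p was 0.05 or less). Filled circles occur for Vegfd only, in 3 settings. Vegfc, Vegfd, Angpt2, Nrp1 and Nrp2 stay on 1 side of 0 throughout, while Vegfa, Vegfb, Pgf and Angpt1 cross it.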

How the data were processed

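Arrays were Affymetrix Mouse Gene 1.0 ST, 1 for each of 6 tumors. The deposited values were log2 expression computed by the authors using RMA and affy, per the submitters' processing notes. Their versions, settings and genome build are not given in the sources used here. The scale was read as log2 because values ran from 2.31 to 15.07. Rows were joined to the platform annotation, and the 21789 of 35512 rows with exactly 1 gene symbol were kept. Where a gene had several rows, the one with the highest mean was taken, leaving 19938 genes. The test was limma 3.58.1 in R 4.3.3, two-sided and with a constant prior. P-values were adjusted over all genes (Benjamini-Hochberg, threshold 0.05). Standard errors and intervals come from the moderated fit. The fit was checked on simulated data. Of 188 memberships in 21 gene lists 183 were measured. All 9 genes, every receptor, and otherwise up to 3 genes of a list by adjusted p or any past the threshold were to be named; from marker lists, those bearing on a result are. The genes and lists were chosen with earlier results of these data known. Alternatives were median centring, quantile normalization, an offset of 16, leaving out the dimmest genes (mean under the 40th percentile), every row, the mean of a gene's rows, a robust prior with an intensity trend, array weights, a replicate block, an adjusted p of 0.01 and leaving out each array.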

Additional observations from a re-analysis of the deposited data

How the results depend on the processing

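As reported, 46 genes passed over the whole array, 0 of the 9 genes and 7 genes of the pathway and marker lists. The whole count was 101 without dim genes, 74 with the offset, 138 with the intensity trend and robust prior, 624 with array weights, 5 at an adjusted p of 0.01, and 0 with every row tested. A fit with intrakidney tumor 1 as the only intrakidney array was added after the values had been seen and gave 30; that arm has no spread of its own and is assumed to vary like the other, so the count is no measure of stability. It ranged from 2 to 33 without 1 array: 2, 3 and 4 without subcutaneous tumor 1, 2 or 3, and 21 without intrakidney tumor 1. The count among the 9 genes was 1, Vegfd, without dim genes, with the trend and with array weights, and 0 in the other 14 settings. The list count was 12 with the trend, 27 with array weights, 3 at 0.01, 0 with every row tested and 2 to 7 without 1 array. Testing every row adjusts over more tests and leaving out dim genes over fewer, and both also estimate the prior anew from other rows. The causes of the changes in count were not tested for any setting.

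The replicate number as a block gave 0 genes of the whole array and 0 of the lists, with Vegfd at an adjusted p of 0.123. Same-numbered tumors correlated at 0.374, -0.159 and 0.104 in their deviations from the group means, and differently numbered tumors at -0.441 to 0.429. The same-numbered values lay within that range, so the numbers were not taken as pairs.

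Differences near 0 changed sign. Vegfa was 0.013 after quantile normalization and 0.11 with array weights, and Pgf and Angpt1 were 0.047 and 0.074 with array weights. Without 1 array, Vegfa ranged from -0.102 to 0.087, Vegfb from -0.045 to 0.038, Angpt1 from -0.16 to 0.048 and Pgf from -0.31 to -0.05. Vegfd ranged from -0.67 to -0.51 without 1 array. Vegfc, Angpt2, Nrp1 and Nrp2 kept their sign in every setting that tested them. Some settings alter only the test and return the same difference, so they could not change a sign.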

Other observations

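Mural cell genes, which cover pericytes and vascular smooth muscle, were a further set tied to vessels. Of 11 genes 0 passed and 6 were positive, with a median of 0.07. The smooth muscle actin gene Acta2, which myofibroblasts also express, measured 10.68, 10.65 and 10.74 in intrakidney and 10.28, 10.31 and 10.38 in subcutaneous tumors, a difference of 0.37 ± 0.07 (SE) that missed the threshold (limma, adjusted p = 0.140). Tagln and Mcam differed by 0.39 and 0.23 (adjusted p = 0.205 and 0.591). Kcnj8, Notch3 and Myh11 were also positive, at 0.13, 0.125 and 0.07 (adjusted p = 0.711, 0.798 and 0.851). The other 5 genes were negative, among them Rgs5 at -0.31, Cspg4 at -0.09, Pdgfrb at -0.06 and Abcc9 at -0.04 (adjusted p = 0.711 to 0.953). The mean over the 11 genes was 8.36 to 8.43 in intrakidney and 8.27 to 8.35 in subcutaneous tumors.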
